A study of Mus musculus with 4 samples.

Results

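ER stress and amino acid response genes were followed in the livers of mouse fetuses whose dams ate a high-fat diet (HFD) or a control diet (CD). The set was chosen by name and holds 10 genes, namely Hspa5, Ddit3, Atf4, Atf3, Atf6, Xbp1, Trib3, Asns, Herpud1 and Dnajb9, out of 22907 genes named on the array, of which 18201 could be tested. All 18 array probes whose transcript belongs to these genes were used, and all 18 were tested.

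Female C57BL/6J dams received the CD (4.3% of kcal from fat, 19.2% from protein and 67.3% from carbohydrate) or the HFD (60% fat, 20% protein and 20% carbohydrate) while pregnant, and fetal livers were taken in mid-gestation. Total RNA was measured on 1-colour Agilent arrays, with 2 arrays from CD-fed dams and 2 from HFD-fed dams. The arrays are described as biological replicates, but how many fetuses or dams stand behind each array is not given in the sources used here, so the error below is the spread between 2 arrays. The gender label reads female for all 4 arrays and does not say whether it refers to the fetus.

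The unfolded protein response is set off when unfolded proteins gather in the endoplasmic reticulum (ER), and it runs through the membrane sensors IRE1, PERK and ATF6. PERK, and GCN2 when amino acids run short, phosphorylate the initiation factor eIF2alpha, which slows most translation but favours that of ATF4, a transcription factor that switches on genes of amino acid supply and, under prolonged stress, of cell death. The fetal liver is both a secretory organ that makes plasma proteins such as albumin and alpha-fetoprotein and the main site of red cell formation at this age. An array reads mRNA amount only, so the splicing of Xbp1 mRNA, the cleavage of ATF6 and the translation of Atf4 are not seen in these values.

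Short sequence motifs through which these pathways are known to act were looked for in the RefSeq promoter windows of the members (assembly GRCm38.p6, 250 bases before to 50 bases after the start), on both strands. A window was found for 9 members, and Atf6 was not matched. The motifs were the ER stress response element ERSE (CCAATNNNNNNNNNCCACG), read by ATF6 with NF-Y, ERSE-II (ATTGGNCCACG), the core TGACGTG of the unfolded protein response element, the cAMP response element TGACGTCA, and the C/EBP-ATF element TGATGNAAN, read by ATF4 dimers. Of all 32851 windows of this length, 0.119% held ERSE, 0.0365% ERSE-II, 2.01% the TGACGTG core, 1.79% TGACGTCA and 3.95% the C/EBP-ATF element. Of the 9 members, 4 held the C/EBP-ATF element, 1 ERSE, 1 ERSE-II, 1 the TGACGTG core and 0 TGACGTCA. Together 5 held at least 1 motif, and none of the matches overlapped another. The share of all windows with any of these motifs was not counted. The stretches around the matches upstream of the start are printed 5′ to 3′ on the strand of the gene, with each match in capitals, because these elements are the ones the response is known to use. In Hspa5 (chr2:34771908-34772068, plus strand) the TGACGTG core lay 157 to 151 bases before the start and ERSE 65 to 47 bases before it. In Herpud1 (chr8:94386291-94386412, plus strand) a C/EBP-ATF element lay on the opposite strand 113 to 105 bases before the start and ERSE-II 52 to 42 bases before it. In Atf3 (chr1:191183411-191183469, minus strand) a C/EBP-ATF element lay on the opposite strand 111 to 103 bases before the start, and in Asns (chr6:7693210-7693257, minus strand) 1 lay 23 to 15 bases before it.
Hspa5: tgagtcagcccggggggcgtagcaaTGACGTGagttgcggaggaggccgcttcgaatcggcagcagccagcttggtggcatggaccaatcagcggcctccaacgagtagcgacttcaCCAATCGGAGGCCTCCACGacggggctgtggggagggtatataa
Herpud1: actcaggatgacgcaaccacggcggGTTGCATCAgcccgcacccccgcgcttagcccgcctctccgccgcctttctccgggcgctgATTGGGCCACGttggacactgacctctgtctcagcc
Atf3: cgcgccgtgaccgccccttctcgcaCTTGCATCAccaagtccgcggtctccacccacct
Asns: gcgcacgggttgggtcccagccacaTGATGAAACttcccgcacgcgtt
The motif of Trib3, a C/EBP-ATF element on the opposite strand, lay 14 to 22 bases after the start. No motif was found in the windows of Ddit3, Atf4, Xbp1 and Dnajb9. These matches describe letters in a window and were not tested for binding.

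The arrays were of like quality: 65.4% to 70% of the spots were well above background and 0 were saturated, while the median intensity ran from 70.23 on CD replicate 2 to 120.5 on CD replicate 1. The CD arrays differed more from each other (SD of the log2 difference over tested probes 0.581) than the HFD arrays did (0.343) or than any CD array differed from any HFD array (0.424 to 0.498). Liver was present in all 4: all 17 hepatoblast markers and all 17 erythroid markers on the array were well above background on each. Markers of other tissues were detected too, and some differed between the diet groups. Of 28 trophoblast and decidua markers, CD livers gave 23 and 25 above background and HFD livers 19 and 14, with both HFD arrays below both CD arrays at 20 and above at 1. Their summed level (log2) came to 6.13 and 6.41 in the CD group against 5.60 and 5.68 in the HFD group, but Gcm1 made up most of the HFD sum, and without it the values were 4.31 and 6.04 against 2.41 and 1.42. The median marker level was -2.33 and -1.51 against -3.70 and -5.44, and Prl5a1, Cts7 and Syna did not clear background on any of the 4. Neuronal markers were well above background at 15 or 16 of 16 and lower on both HFD arrays at 9. Of 15 markers of gonad somatic cells and adrenal, 14 or 15 were well above background, 5 were higher on both HFD arrays and 1 was lower. Of all tested genes, 23% were higher on both HFD arrays and 10.1% lower, while these marker counts also hold genes that the filters left out. The part of these tissues in the members' values was not tested.

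No member gene passed the test for a change with maternal diet. In limma, 0 of the 18 member probes had an unadjusted p under 0.05, against 3.35% of all 41332 probes tested (2.84% of the genes), and 0 passed both that cutoff and 2-fold, against 0.293% of all probes on the higher side and 0.477% on the lower. With Benjamini-Hochberg adjustment across the whole array, the adjusted p was 1.00 for every member and 0 of all probes were called. The study's methods name no test for the arrays. The t-test of their general statistics gave an unadjusted p under 0.05 at 2 member probes, against 5.05% of all probes. These were the brightest of Xbp1 and the dimmer of Dnajb9. With Welch's correction the Xbp1 probe alone had such a p, against 2.4%. None held after adjustment. A permutation of 2 arrays against 2 cannot give an exact two-sided p below 0.333, so no single gene can pass that test here. In bulk liver RNA, fewer cells of a type and less RNA per cell cannot be told apart.

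What the arrays do give is a bound on the change at each probe. Below, a level is a log2 processed intensity with its array's 75th percentile subtracted, given for replicate 1 and then replicate 2, a difference is HFD minus CD on that log2 scale, and the interval is the 95% interval of the limma fit. For 9 of the 10 genes the interval at the brightest probe lay inside 2-fold in both directions. Trib3 was the exception, on the lower side. Over all 18 probes, 15 intervals lay inside 2-fold and 3 reached it, all on the lower side. Besides Trib3, these were the dimmest Xbp1 probe (-1.02 to 0.52) and the dimmer Herpud1 probe (-1.05 to 0.45). The share of all tested probes inside 2-fold was not counted. The median half-width of the interval was 0.58 over the member probes and 0.56 over all tested probes.

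Among the transcription factors of the sensor arms, Atf6, the membrane-bound factor that is cut in the Golgi and then induces ER chaperones, had levels of 0.96 and 1.45 in the CD group against 1.20 and 1.23 in the HFD group. The HFD arrays lay between the CD arrays, and the difference was 0.0064 (interval -0.59 to 0.61). Its sign turned without CD replicate 1, to -0.24, and without HFD replicate 2, to -0.011.

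Xbp1, whose mRNA is spliced by IRE1 into the form that codes for an active factor, had levels of 4.95 and 4.92 in the CD group against 5.12 and 5.09 in the HFD group at its brightest probe. Both HFD arrays were higher, by 0.17 (-0.25 to 0.59), with an SD of 0.021 between CD arrays and 0.023 between HFD arrays. The pattern did not extend to its other probes. The second probe gave 1.18 and 1.74 against 1.32 and 1.18, and the dimmest 0.50 and 1.21 against 0.68 and 0.53. The differences were -0.21 (-0.87 to 0.45) and -0.25 (-1.02 to 0.52), and at both probes the groups overlapped.

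Atf4, the factor shared by the PERK and GCN2 arms, had levels of 7.24 and 7.44 in the CD group against 7.58 and 7.55 in the HFD group. Both HFD arrays were higher at this brightest probe, by 0.23 (-0.23 to 0.68), an interval that runs from 0.852-fold to 1.61-fold. Its other probe had levels of 2.83 and 3.20 against 2.94 and 2.86, a difference of -0.11 with overlapping groups. The interval there, -0.65 to 0.43, reached further down.

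Of the factors that act downstream of ATF4, Ddit3, which codes for the pro-apoptotic factor CHOP, had levels of 0.048 and 0.34 in the CD group against -0.075 and 0.28 in the HFD group. The groups overlapped, with a difference of -0.089 (-0.67 to 0.49) that turned to 0.056 without CD replicate 2 and to 0.09 without HFD replicate 1. Atf3, a stress-induced factor of the same bZIP family, had levels of -2.22 and -1.83 against -2.03 and -2.24. Its groups overlapped as well, with a difference of -0.11 (-0.68 to 0.46), or 0.085 without CD replicate 2.

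Trib3, a pseudokinase induced by ATF4 and CHOP, had levels of 2.06 and 2.23 in the CD group against 1.46 and 2.18 in the HFD group. A single array, HFD replicate 1, stood low, while the other HFD array lay between the CD arrays. The difference of -0.33 (-1.10 to 0.45) was the most negative among the members' brightest probes. It came to 0.034 when HFD replicate 1 was left out and to -0.69 when HFD replicate 2 was. The gap of 0.72 between the HFD arrays was reached or passed by 4.7% of all tested genes.

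Among the effectors in the ER, Hspa5, which codes for the lumenal chaperone BiP and is the usual read-out of ER stress, had levels of 6.55 and 6.69 in the CD group against 6.81 and 6.76 in the HFD group. Both HFD arrays were higher, by 0.17 (-0.27 to 0.60), so that a rise beyond 1.52-fold lies outside the interval. Its other probes did not share this. Their levels were 4.37 and 4.53 against 4.41 and 4.32, and 3.80 and 4.16 against 3.94 and 3.82, with differences of -0.087 and -0.10 and overlapping groups.

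Dnajb9, a co-chaperone of BiP, had levels of 0.62 and 1.07 in the CD group against 1.00 and 0.91 in the HFD group. The groups overlapped, with a difference of 0.11 (-0.47 to 0.69) that turned to -0.12 without CD replicate 1. The dimmer Dnajb9 probe, with levels of -3.99 and -4.11 against -3.74 and -3.72, was higher on both HFD arrays by 0.33 (-0.10 to 0.76), the most positive of the 18 probes. Its processed intensities, 67.3, 40.8, 72.8 and 69.1 in that order of arrays, were the lowest of the set, though well above background on all 4.

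Herpud1, an ER membrane protein of ER-associated degradation, had levels of 2.90 and 3.22 in the CD group against 3.04 and 3.01 in the HFD group. The HFD arrays again lay between the CD arrays, with a difference of -0.037 (-0.54 to 0.47), or 0.12 without CD replicate 2. The dimmer probe gave 0.24 and 0.95 against 0.32 and 0.28, a difference of -0.30 (-1.05 to 0.45).

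Asns, the asparagine synthetase gene and a standard ATF4 target of the amino acid response, had levels of 5.93 and 6.41 in the CD group against 6.42 and 6.42 in the HFD group. Both HFD arrays were above both CD arrays, but the margin over CD replicate 2 was far smaller than the gap of 0.48 between the CD arrays. The difference was 0.25 (-0.34 to 0.85), and leaving out CD replicate 2 gave 0.49, while leaving out CD replicate 1 gave 0.017. At the dimmer Asns probe, with levels of 2.34 and 3.11 against 2.68 and 2.59, both HFD arrays lay between the CD arrays and the difference was -0.092.

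**Figure D1:**
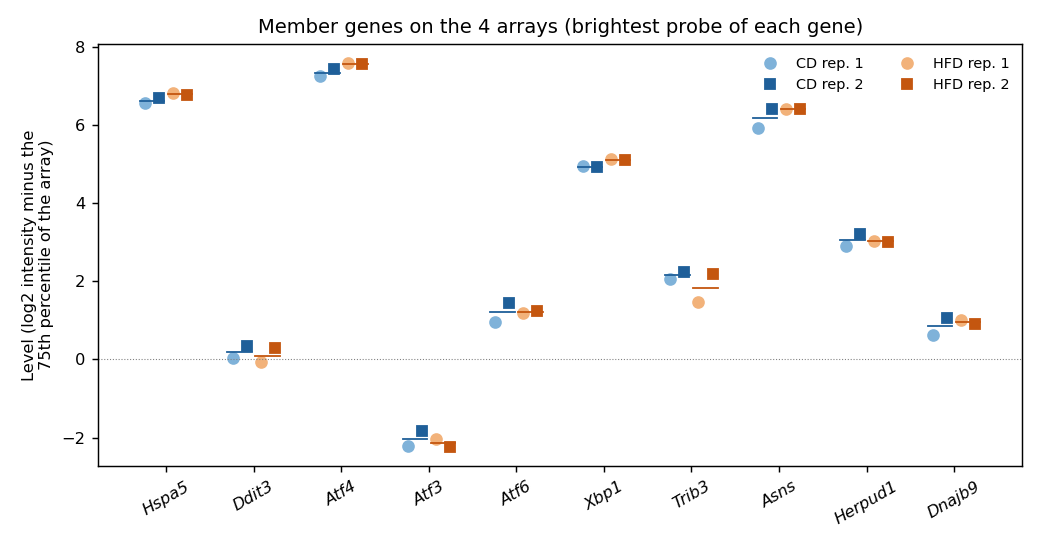
Level of each member gene at its brightest probe (y axis, log2 intensity minus the 75th percentile of the array) on the 4 arrays, with circles for replicate 1, squares for replicate 2 and short lines for group means. Hspa5, Atf4, Xbp1 and Asns have both HFD arrays above both CD arrays, with group means 0.17 to 0.25 apart, and Trib3 is low on HFD replicate 1 alone.

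Counting arrays rather than fitting, both HFD arrays lay above both CD arrays at 5 of the 18 member probes, against 19.5% of all tested probes, and below them at 0, against 11.1%. By gene, these were 4 of 10 and 0 of 10, against 23% and 10.1% of all tested genes. The 4 genes were Hspa5, Atf4, Xbp1 and Asns. Their signs rested on the choice of probe: of the 6 members with several probes, the brightest was positive in 5, while 7 of the 8 other probes were negative, and in Hspa5, Atf4, Xbp1 and Asns the probes of the same gene differed in sign. When the probes of a gene were averaged, Hspa5 gave -0.0075 and Xbp1 -0.095, while Atf4 and Asns stayed positive at 0.058 and 0.081. The plot of all member probes shows the intervals side by side.

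**Figure D2:**
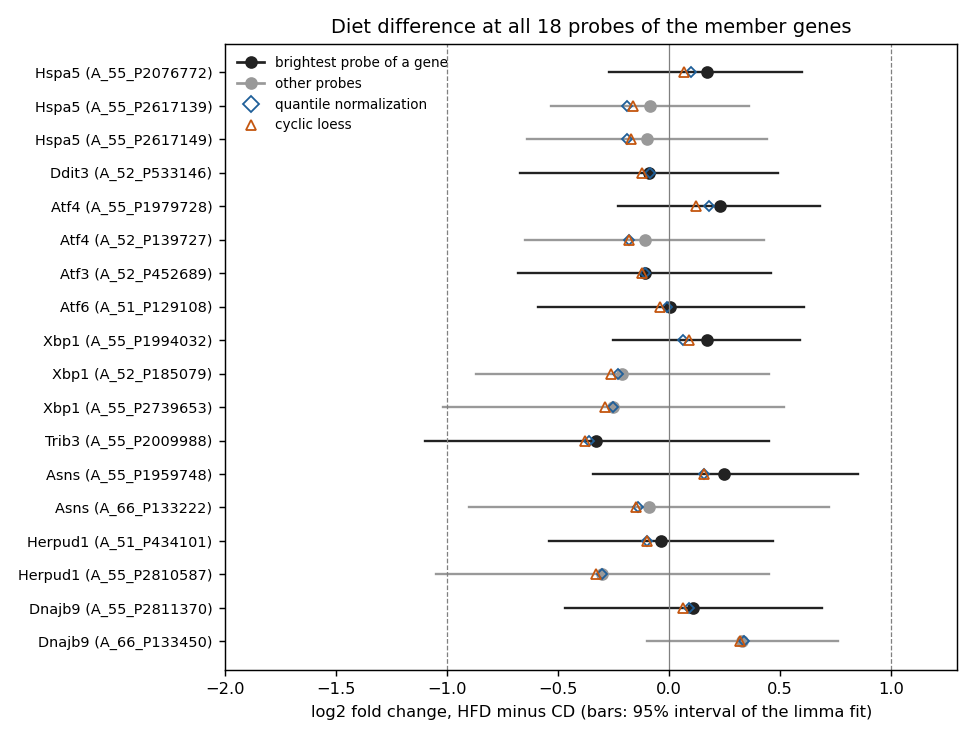
Difference between HFD and CD (x axis, log2 fold change) at each of the 18 member probes, with bars for the 95% interval of the limma fit, black for the brightest probe of a gene and grey for its others. Diamonds and triangles give the same probe after quantile normalization and cyclic loess, and dashed lines mark 2-fold, which 3 of the 18 intervals reach.

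The scaling of the arrays bore on this count. When all tested genes were ordered by mean level and divided into 10 bins, the median difference was -0.021 in bin 4 and rose to 0.095 and 0.11 in bins 9 and 10, and the share of genes with both HFD arrays above both CD arrays rose from 13.1% in bin 4 to 40.8% in bin 10. Hspa5, Atf4, Xbp1 and Asns all lay in bin 10, Herpud1 in bin 9, Trib3 in bin 8, Atf6 in bin 7, Dnajb9 in bin 6, Ddit3 in bin 5 and Atf3 in bin 3. Quantile normalization, which gives all arrays the same distribution, brought the medians of bins 9 and 10 to 0.017 and 0.023, and cyclic loess brought them to 0.025 and 0.023. The members then split differently. Under quantile normalization and under cyclic loess alike, 3 member probes had both HFD arrays above both CD arrays and 4 had them below, in place of 5 and 0, against 17.7% higher and 12.7% lower of all probes on the quantile scale and 16.3% and 14.8% on the loess scale. The 3 that were higher under every scaling were the brightest probes of Atf4 and Asns and the dimmer probe of Dnajb9. The 4 that were lower under both alternatives were the dimmer Atf4 probe, the 2 dimmer Hspa5 probes and the brightest Herpud1 probe. On the quantile scale the dimmer Atf4 probe differed by -0.18 and the dimmer Hspa5 probes by -0.19 each, so the Atf4 probes went in opposite directions. The brightest Hspa5 and Xbp1 probes came to overlap, with differences of 0.10 and 0.063 after quantile normalization, while the brightest Herpud1 probe, at -0.10, came to lie below on both HFD arrays. By gene, 2 of the 10 members were higher and 1 lower on the quantile scale, against 19.2% and 13.2% of all tested genes.

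**Figure D3:**
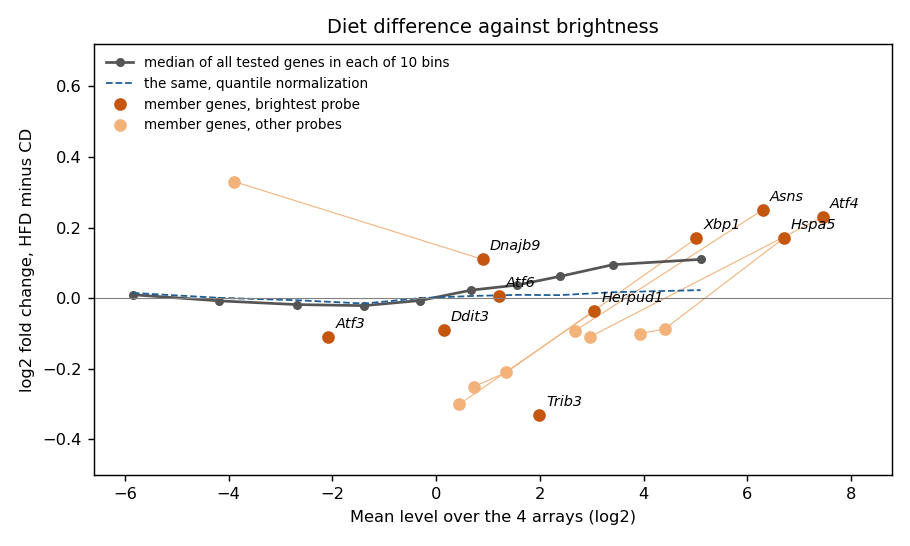
Difference between HFD and CD (y axis, log2 fold change) against mean level over the 4 arrays (x axis, log2) for the 18 member probes, with thin lines joining probes of the same gene, beside the median of all tested genes in 10 bins of mean level. The grey line climbs to 0.11 in the brightest bin and the dashed line, after quantile normalization, stays at 0.023 there.

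The spread among the members lay mainly between the CD arrays. CD replicate 2 was above CD replicate 1 at 16 of the 18 member probes, 13 probes were highest on CD replicate 2, and 11 were lowest on CD replicate 1. Over all tested probes these shares were 52.6%, 33.5% and 37.3%. By gene, 6 of the 10 members were highest on CD replicate 2 and 6 lowest on CD replicate 1, against 33.7% and 42.7% of all tested genes. Over the brightest probes, the median absolute gap between the CD arrays was 0.30, close to the 0.32 over all tested genes, and that between the HFD arrays was 0.042, against 0.10 over all. The gap between the CD arrays exceeded the diet difference at 13 of the 18 member probes, and the gap between the HFD arrays did so at 6. Neither share was counted over all tested probes. By medians over genes, a CD gap above the diet difference was not particular to the members. The median absolute diet difference was 0.14 both over the members and over all tested genes. That is below the median CD gap and above the median HFD gap in each. Hepatoblast markers split the CD arrays in the same direction. Their median deviation from each gene's mean was -0.28 on CD replicate 1 and 0.24 on CD replicate 2, with 0.037 and -0.028 on the HFD arrays, and that of the 10 members was -0.15 and 0.17, with 0.072 and 0.065. Erythroid markers gave -0.30 and 0.22, with 0.051 and 0.073. The part of cell make-up in the members' spread was not tested.

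Beyond the members, 143 genes of 6 related lists were tested, and both HFD arrays were higher at 45 (31.5%) and lower at 5 (3.5%), against 23% and 10.1% of all tested genes. Of the 143, 81 lay in bins 9 and 10 of mean level, where 37.4% and 40.8% of all genes were higher on both HFD arrays. After quantile normalization the list counts were 33 (23.1%) and 20 (14%), against 19.2% and 13.2%. After cyclic loess they were 33 (23.1%) and 25 (17.5%), against 18% and 15.3%. The counts of the single lists below are to be read beside these shares of all tested genes on the same scale. None passed both cutoffs in limma, and 1 gene, Ufd1, had an unadjusted p under 0.05, against 2.84% of all tested genes. The t-test gave 14 such genes of the 143, against 6.22% of all tested genes, and Welch's correction gave 9, against 3.08%. The median difference over the 10 members was 0.056, next to 0.039 over all tested genes.

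Of 22 UPR sensors and transducers, the median difference was 0.026, with both HFD arrays higher at 7 and lower at 0, or 7 and 2 after quantile normalization. Eif2s1, the alpha subunit of eIF2, had the highest difference at 0.23 and Atf6b, a relative of Atf6, the lowest at -0.20. Mbtps1, the Golgi protease that cuts ATF6, and Gcn1, which activates GCN2, differed by 0.034 and -0.0011.

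Of 25 ATF4 and CHOP targets, the median was 0.03, with 4 higher on both HFD arrays and 3 lower. After quantile normalization these counts were 4 (16%) and 6 (24%), against 19.2% and 13.2% of all tested genes. After cyclic loess they were 5 (20%) and 9 (36%), against 18% and 15.3%. The medians were -0.016 and -0.027. Gdf15, a secreted stress cytokine, had levels of 0.47 and 0.70 in the CD group against 0.98 and 1.15 in the HFD group, a difference of 0.48 (-0.0093 to 0.97). Nupr1, a stress-induced nuclear protein, went the other way, with 0.66 and 0.21 against -0.23 and 0.13, a difference of -0.48 (-1.14 to 0.18). Both had an adjusted p of 1.00. Of the targets with the highest levels, Ppp1r15a, which codes for a regulatory subunit of the eIF2alpha phosphatase, differed by 0.036, Atf5 by -0.032 and the autophagy gene Map1lc3b by 0.32.

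Like Trib3, 5 of the 25 targets were lowest on HFD replicate 1, against 11.6% of all tested genes. Chac1, a glutathione-degrading enzyme induced by ATF4, was picked out after its values were seen, with levels of 1.03 and 1.38 in the CD group against 0.44 and 1.04 in the HFD group. Its gap between HFD arrays was 0.60, reached or passed by 6.62% of all tested genes, and those of Nupr1 and Ddit3 were 0.37 and 0.36, reached by 14.1% and 14.7%. Asns was not low there, and neither was Gdf15.

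**Figure D4:**
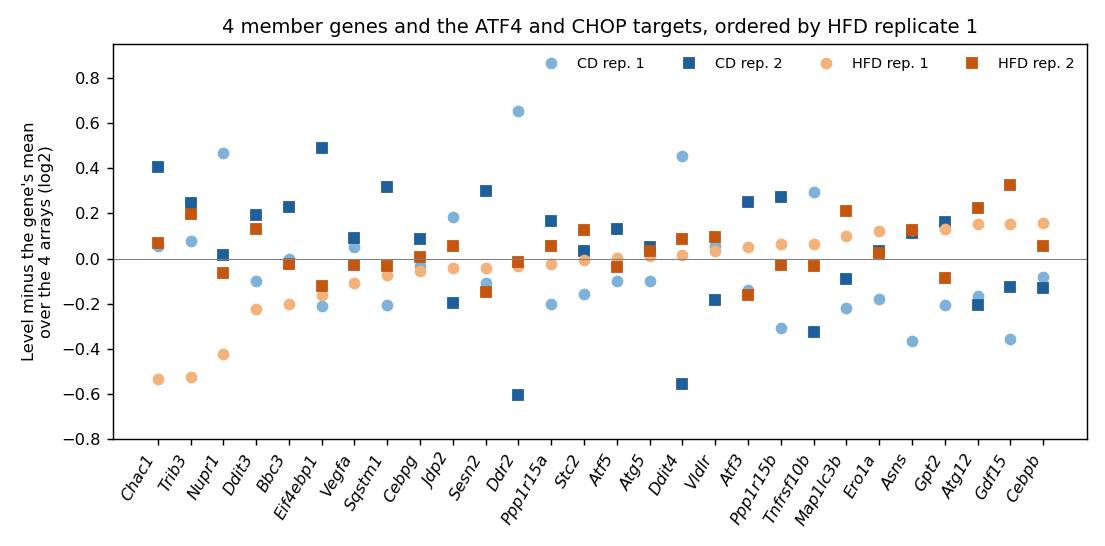
Level minus the gene's mean over the 4 arrays (y axis, log2) for Trib3, Ddit3, Atf3 and Asns and the ATF4 and CHOP targets that were well above background on all 4 arrays, ordered by the value on HFD replicate 1. Chac1, Trib3 and Nupr1 lie lowest on that array, while Asns and Gdf15 lie on its high side.

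Of 22 genes of amino acid synthesis and transport, the median was 0.10, with 7 higher on both HFD arrays and 1 lower, or 4 and 3 after quantile normalization. Slc1a4, a transporter of neutral amino acids, gave 2.90 and 2.92 against 3.36 and 3.27, a difference of 0.40 (-0.022 to 0.83). Slc38a2, a glutamine transporter, gave 3.06 and 3.42 against 3.02 and 2.94, a difference of -0.26. The serine synthesis genes Phgdh and Psat1 differed by -0.24 and 0.11, and the glycine transporter Slc6a9 by -0.018. Of 20 cytosolic aminoacyl-tRNA synthetases, which charge tRNAs and include ATF4 targets, 5 were higher on both HFD arrays and 0 lower, with a median of 0.046. After quantile normalization these were 5 and 2 with a median of -0.052, and after cyclic loess 4 and 3 with a median of -0.03. Sars had the highest difference at 0.34 and Iars the lowest at -0.16, and Gars, Eprs and Kars gave 0.18, -0.055 and 0.0018.

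Of 23 ER chaperones and folding enzymes, 8 (34.8%) were higher on both HFD arrays and 0 lower, with a median of 0.076, against 23% and 10.1% of all tested genes. After quantile normalization these became 2 (8.7%) and 3 (13%), against 19.2% and 13.2%, and the median 0.017. Hsp90b1, the ER member of the HSP90 family, which is induced together with Hspa5 in ER stress, differed by -0.064, the disulfide isomerase gene Pdia6 by 0.10 and calnexin, Canx, by 0.084. Uggt1, which senses glycoprotein folding, had the highest difference at 0.26 and the oxidase gene Ero1b the lowest at -0.26.

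Of 31 genes of ER-associated degradation and ER import, 14 (45.2%) were higher on both HFD arrays and 1 lower, with a median of 0.10, against 23% higher over all tested genes. Of these 31 genes, 20 lay in bins 9 and 10, and 9 of the 20 were higher, against 37.4% and 40.8% of all genes in those bins. On the quantile scale 11 were higher and 4 lower with a median of 0.016, and on the loess scale 11 and 3 with the same median. Ufd1, an adaptor of the segregase that pulls proteins out of the ER membrane, had levels of 3.27 and 3.25 in the CD group against 3.68 and 3.71 in the HFD group. It was higher by 0.43 (0.012 to 0.85), with an unadjusted p of 0.0458 and an adjusted p of 1.00 in limma, so it did not pass after adjustment. Derl3, a derlin of the same degradation machinery, gave -2.23 and -1.95 against -2.47 and -2.78, a difference of -0.54 (-1.09 to 0.018). The translocon genes Sec61g, Sec61b and Ssr2 differed by 0.25, 0.081 and 0.091.

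Genes of other stress responses served as comparison. Of 14 heat shock genes, most of them cytosolic, 4 were higher on both HFD arrays and 0 lower, with a median of 0.075, or 3 and 0 after quantile normalization and 2 and 2 after cyclic loess. Hspa8, Hsp90ab1 and Hspd1, which codes for a mitochondrial chaperonin, differed by -0.014, -0.015 and 0.01, Hspa1b by 0.55 (-0.44 to 1.54) with overlapping groups, and Hsf1 by -0.24. Of 17 immediate early genes, which respond fast when tissue is handled, 3 were higher and 2 lower, with a median of 0.14. Dusp1 and Junb both differed by 0.27, Btg2 by -0.10 and Jund by -0.36. None of these genes had an unadjusted p under 0.05 in limma.

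**Figure D5:**
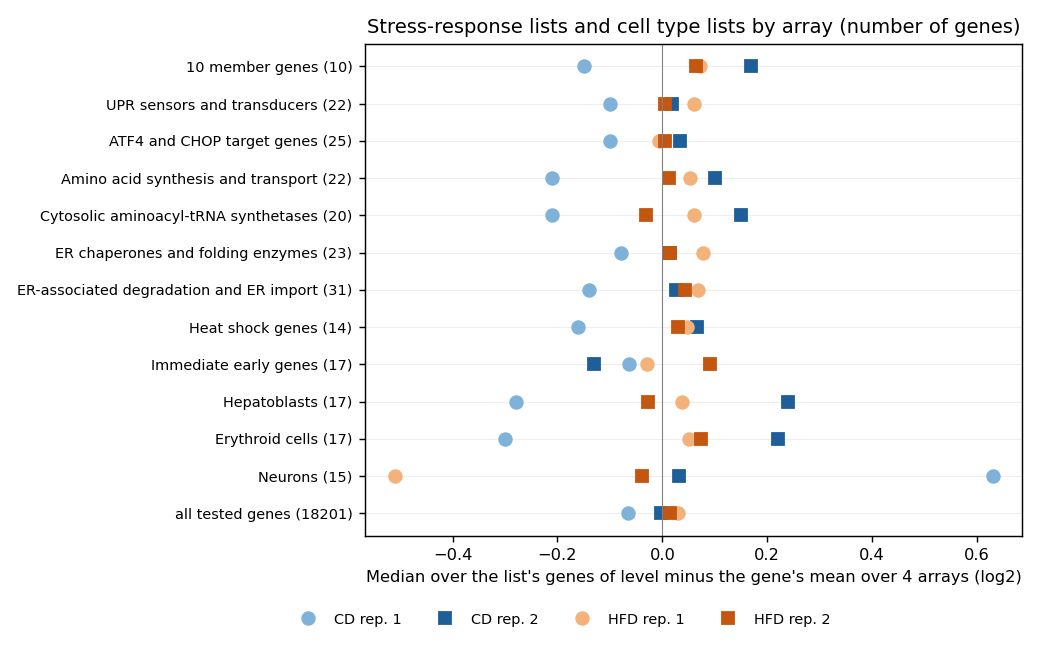
Median over the genes of each list of the level minus the gene's own mean over the 4 arrays (x axis, log2), by array, for the members, the related lists, the comparison lists and marker lists of cell types, with the number of genes tested in brackets. CD replicate 1 lies lowest in every stress-response list except the immediate early genes, and the HFD arrays lie between the CD arrays for the hepatoblast markers at 0.037 and -0.028.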

How the data were processed

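Processed intensities were deposited for 4 Agilent 1-colour arrays. The authors extracted them with Agilent Feature Extraction 11.0.1.1, which subtracts background and removes spatial trends, and scaled and filtered them in other software. The files' spot flags, coded as scores by the authors' scanner software, were used to leave out outlier spots. The value table deposited by the authors holds linear signal, equal to the processed intensity divided by a constant per array, and served as an alternative. Probe positions were not used.

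Spots were log2 transformed, averaged by probe and set relative to the 75th percentile of each array. Following the study's filters, probes below an array's 20th percentile (14980) or with a CV of the linear signal over 50% in both groups (284) were left out, which kept 41332 of 56596 probes. The methods word this filter as a log scale CV, and the CV of the log2 signal, run as an alternative, kept 41614. HFD was compared with CD in limma 3.58.1 (R 4.3.3; lmFit and eBayes) with Benjamini-Hochberg adjustment over all tested probes. The fit was tested on simulated data. Cutoffs were an unadjusted p under 0.05 and 2-fold. The probe with the highest mean level stood for a gene. From each related list the text names the 3 genes with the highest mean level and the highest and lowest difference among genes well above background. Marker lists covered hepatoblasts, erythroid cells, trophoblast and decidua, pancreatic acinar and gastric gland cells, macrophages, neurons, and gonad somatic cells and adrenal. Members and lists were chosen with earlier results of these data known.

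The number of arrays, 2 per group, limits the precision. The file headers place all 4 arrays on the same slide and scan, so neither could be used as a block. Replicate numbers are not known to pair the arrays. Deviations of the same-numbered arrays correlated at -0.0997 over 41332 probes, but with 2 arrays per group this cannot exclude a pairing. Alternatives were quantile normalization, normexp background correction (offset 50), the deposited table, other filters on dim and variable probes, a floor of 5, t-tests, the replicate block, leaving out each array, the mean over probes and, chosen after seeing the data, cyclic loess.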

Additional observations from a re-analysis of the deposited data

How the results depend on the processing

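No member probe passed both cutoffs under any alternative run. The smallest unadjusted limma p of a member's brightest probe, 0.0205, came from Asns without CD replicate 2. With an array left out, its group holds a single array, so the error comes from the other group and the lone array is assumed to vary like it, which limits what these p and counts show. Over all tested probes, 121 were higher and 197 lower past both cutoffs. The higher count was 13 with normexp, 385 with no filter on dim probes, 71 with probes well above background, 41 by the t-test, 21 with Welch's correction and 190 to 843 with an array left out. The lower count was 35 with normexp, 460 with no filter on dim probes, 326 with a floor of 5, 56 by the t-test, 25 with Welch's correction and 383 to 466 with an array left out. With the replicate block these counts were 177 and 258, no member call changed, and the numbers are not known to pair the arrays. Of 146 checks of member genes, 13 turned the sign. Atf6 gave -0.0079 with quantile normalization, -0.016 with normexp, -0.041 with cyclic loess and -0.24 to 0.25 with an array left out. With the mean over probes, Hspa5 gave -0.0075 and Xbp1 -0.095. With an array left out, Ddit3 ran from -0.27 to 0.09, Atf3 from -0.31 to 0.085, Trib3 from -0.69 to 0.034, Herpud1 from -0.19 to 0.12 and Dnajb9 from -0.12 to 0.33. The cause of each was not tested.

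Of the list medians, ER chaperones moved to 0.017 with quantile normalization and 0.00024 with cyclic loess, ER-associated degradation and ER import to 0.016 with both, and immediate early genes to 0.043 with normexp. With an array left out, the median of the 10 members ran from -0.16 without CD replicate 1 to 0.20 without CD replicate 2. The other medians that moved ran from 0.026 to 0.094 for UPR sensors, -0.063 to 0.22 for amino acid genes, 0.043 to 0.20 for ER-associated degradation, 0.00076 to 0.22 for heat shock genes, -0.043 to 0.23 for immediate early genes, -0.27 to 0.34 for hepatoblasts, -0.14 to 0.35 for erythroid cells, -0.66 to -0.083 for the 9 trophoblast markers tested (of 28 on the array, since the filters left out many that were low on HFD arrays), -0.20 to 0.18 for macrophages, -1.04 to -0.42 for neurons and 0.04 to 0.79 for gonad and adrenal markers.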

Other observations

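Other marker lists also varied. Macrophage markers, of which the brightest, Marco and Csf1r, differed by 0.40 and 0.037, had a median difference of 0.07 over 12 tested genes. Markers of pancreatic acinar and gastric gland cells had a median of -0.37 over 18 tested genes, with Gkn1 at -1.27 and Tff2 at -1.10, both past the unadjusted cutoffs in limma with an adjusted p of 1.00. Fgf21, an ATF4 target secreted by the liver, was well above background on 1 of the 4 arrays, with levels of -4.47 and -7.41 in the CD group against -6.11 and -6.15 in the HFD group, so no change can be read from it.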
